A study of Mus musculus with 3 samples.

Results

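The Notch receptors and their ligands were examined in bulk RNA-Seq of E10.5 maxillary processes. The members were chosen by name and comprise the 4 receptors *Notch1* to *Notch4*, the 5 ligands *Dll1*, *Dll3*, *Dll4*, *Jag1* and *Jag2*, and the glycosyltransferase gene *Lfng*. These are 10 of the 55401 gene identifiers counted, and each symbol matched 1 gene in GENCODE M21 (GRCm38). The data consist of 3 libraries of 1 genotype, Wnt1cre; Rosa26Dlx2/- (OE replicates 1, 2 and 3), all from embryos of the same stage. These embryos carry a Cre transgene under *Wnt1* control and a *Rosa26* allele (CAG-LSL-Dlx2-3xFlag) that expresses flagged *Dlx2* after Cre has removed a stop cassette. The design directs the added *Dlx2* to cells derived from the neural crest, but where it was active was not measured here. Epithelium, endothelium and blood in the dissected tissue do not derive from the neural crest. The paper also prepared wild-type samples, but no wild-type library was used here. Each value describes OE tissue, and genotypes were not compared. The sources used here name 3 independent RNA samples but not how many embryos went into each, and tests between libraries measure only the spread between these samples.

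Notch signalling passes between touching cells. A Delta or Jagged ligand on the surface of a cell pulls on a Notch receptor of its neighbour, ADAM proteases and then the gamma-secretase complex cut the receptor, and the freed intracellular part joins RBPJ and a Mastermind coactivator in the nucleus to switch on *Hes* and *Hey* genes. Fringe enzymes such as LFNG add a sugar to the receptor in the Golgi, which favours binding of Delta ligands over Jagged ligands. In the embryonic head the pathway is known for arterial identity (*Notch1*, *Notch4*, *Dll4*), for coating of vessels by mural cells (*Notch3*), for spacing of newborn neurons (*Dll1*, *Dll3*) and for jaw and palate patterning (*Jag1*, *Jag2*).

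*Dlx2*, the overexpressed gene, was at 235, 201 and 183 CPM (counts scaled to each library's total on genes after TMM correction for composition) in replicates 1, 2 and 3. Counts on genes ran from 35351031 to 40057435 per library, and 3 counts, taken as the limit of detection, corresponded to 0.0777 to 0.0843 CPM. This limit and the counting intervals below cover counting error only. All 4 maxillary markers (*Pou3f3*, *Nr2f1*, *Lhx8* and *Lhx6*) and all 8 facial mesenchyme markers reached 1 CPM in each of the 3 libraries, and so the markers of the labelled tissue were present. Blood (2112 to 4904 CPM summed over 6 genes), epithelial (264 to 417 over 8), endothelial (347 to 415 over 10), macrophage (15.5 to 22.3 over 5) and muscle genes (24.5 to 63.1 over 4) were also present. Replicate 1 stood apart in its neuron markers, which summed to 273 CPM against 24.3 and 35.9 in replicates 2 and 3, and in its eye and forebrain markers, at 25.03 against 158 and 146. Replicate 3 stood apart in its pigment markers, at 98.2 CPM against 2.41 and 12.8, and in its long genes, as described below. In whole tissue, fewer cells of a type and less RNA per cell cannot be told apart.

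All 10 members were expressed in all 3 OE libraries, and their levels spanned a wide range. Levels were compared between genes as CPM per kilobase of exon (CPM/kb), because long genes collect more reads. *Notch3* was the highest member at 16.3 ± 4.60 CPM/kb (mean ± SD, n = 3), followed by *Notch2* at 7.80 ± 1.74 and *Jag2* at 7.44 ± 1.39. *Jag1* (3.41 ± 1.05), *Notch4* (3.14 ± 0.561), *Dll4* (2.38 ± 0.0821), *Lfng* (2.19 ± 0.216) and *Notch1* (1.88 ± 1.02) formed a middle group. *Dll1* was at 0.617 ± 0.212 and *Dll3* was the lowest at 0.444 ± 0.412. *Notch3* lay above 85.2% of protein-coding genes by this measure and *Dll3* above 45.4%.

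The order held beyond the spread between libraries at only some steps. *Notch3* exceeded *Notch2*, *Jag2* exceeded *Jag1*, and *Notch4* exceeded *Dll4* in 3 of 3 libraries without overlap of their ranges. *Notch2* and *Jag2* overlapped almost fully, at 5.85 to 9.19 and 5.84 to 8.39 CPM/kb, and *Notch2* was higher in 2 of 3 libraries. The ranges of the neighbours *Jag1* and *Notch4*, *Dll4* and *Lfng*, *Lfng* and *Notch1*, and *Dll1* and *Dll3* also overlapped. *Notch1* exceeded *Dll1* in 3 of 3 libraries although their ranges met, since *Notch1* was at 0.759 CPM/kb in replicate 3. With 3 libraries a two-sided exact sign-flip permutation test of such a step cannot go below p = 0.25, so no p-value is given. With the longest transcript as the gene's length in place of all exonic bases, *Notch1* stood at 2.81 and *Jag2* at 10.1 CPM/kb, which placed *Notch1* sixth and *Jag2* above *Notch2*.

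**Figure D1:**
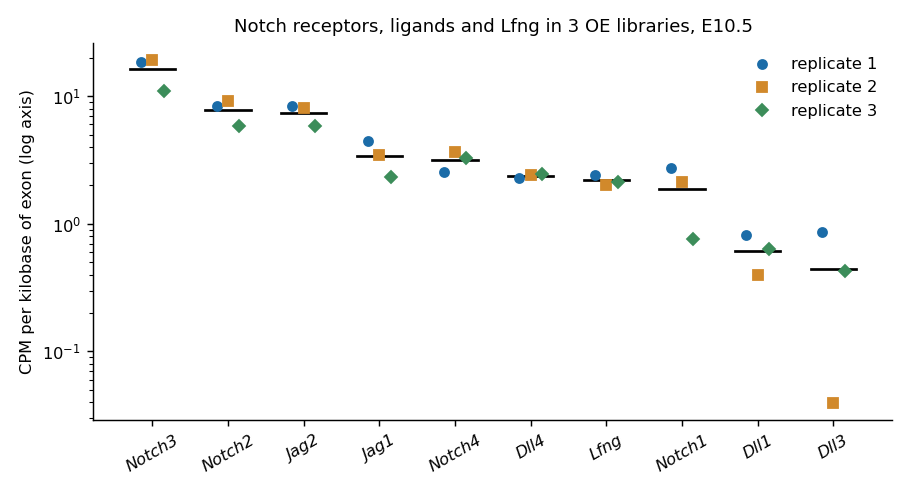
Levels of the 10 members in CPM per kilobase of exon on a log axis, with 1 symbol per OE replicate and a bar at the mean of 3 libraries. *Notch3* lies highest at 11.0 to 19.3, and *Dll3* spreads most, from 0.0394 in replicate 2 to 0.864 in replicate 1.

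Among the receptors, *Notch3* was the main transcript, and *Notch1* the most variable over all 3 libraries. *Notch3* (ENSMUSG00000038146, chromosome 17, 32120820 to 32166852, minus strand), a receptor known from mural cells, was at 151, 156 and 88.9 CPM in replicates 1, 2 and 3. The 6 mural markers together summed to 21.6, 16.0 and 14.1 CPM. *Notch2* (ENSMUSG00000027878, chromosome 3, 98013527 to 98150361, plus strand), a widely expressed receptor, was at 90.2, 99.0 and 63.1 CPM. Replicates 1 and 2 were close for both genes, and replicate 3 was the lowest. *Notch1* (ENSMUSG00000026923, chromosome 2, 26457903 to 26516663, minus strand), which acts in arteries, blood stem cells and neural progenitors, was at 39.2, 30.1 and 10.8 CPM. The highest library was 3.63 times the lowest. *Notch4* (ENSMUSG00000015468, chromosome 17, 34564268 to 34588503, plus strand), a receptor largely restricted to endothelium, was at 20.4, 29.4 and 26.2 CPM. It was the only receptor that was not lowest in replicate 3.

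Shares of the summed receptor level do not depend on the scaling between libraries. *Notch3* made up 57.7%, 56.3% and 52.7% of the 4 receptors in replicates 1, 2 and 3, per kilobase, and *Notch2* 25.9%, 26.9% and 28.1%. These 2 receptors together dominated each library. *Notch1* made up 8.53%, 6.19% and 3.64%, and *Notch4* 7.86%, 10.6% and 15.6%. The ratio of *Notch4* to *Notch1* was 0.921 in replicate 1, 1.72 in replicate 2 and 4.28 in replicate 3, so the order of these 2 receptors differed between libraries. Of the exonic bases of *Notch1*, 9.76% also lie in exons of *0610009E02Rik* and *Gm13568* on the opposite strand. The library kit does not mark strand, so reads there cannot be assigned by strand.

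Among the ligands, the summed Jagged level exceeded the summed Delta level in each library, although *Jag1* (2.34 CPM/kb) was below *Dll4* (2.45 CPM/kb) in replicate 3. *Jag2* (ENSMUSG00000002799, chromosome 12, 112907819 to 112929776, minus strand), needed for palate closure and present in oral epithelium, was at 58.5, 56.3 and 40.7 CPM in replicates 1, 2 and 3. *Jag1* (ENSMUSG00000027276, chromosome 2, 137081456 to 137116644, minus strand), the ligand gene mutated in Alagille syndrome, was at 25.9, 20.1 and 13.6 CPM. Both were highest in replicate 1 and lowest in replicate 3, and per kilobase *Jag2* was 1.89, 2.34 and 2.495 times *Jag1*. *Dll4* (ENSMUSG00000027314, chromosome 2, 119325784 to 119335962, plus strand), the ligand of arterial endothelium and sprouting vessels, was at 8.84, 9.27 and 9.45 CPM. It was the steadiest member, with a highest library of 1.07 times the lowest.

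The Delta ligands of neurogenesis and somite formation were low. *Dll1* (ENSMUSG00000014773, chromosome 17, 15367354 to 15376872, minus strand), a ligand of neural progenitors, had 134, 60 and 100 counts, or 3.47, 1.69 and 2.65 CPM. *Dll3* (ENSMUSG00000003436, chromosome 7, 28293553 to 28302238, minus strand), a divergent family member that acts inside the same cell and does not activate receptors of its neighbours, had 95, 4 and 46 counts, or 2.46, 0.112 and 1.22 CPM. Both were highest in replicate 1 and lowest in replicate 2. The 95% Poisson interval of *Dll3* was 0.0306 to 0.288 CPM in replicate 2 and 0.894 to 1.63 in replicate 3, so these counts did not overlap within counting error. The mean of *Dll3* rests on replicate 1, since it was 0.444 CPM/kb over all libraries and 0.234 without that library. Of the exonic bases of *Dll1*, 20.5% are shared with *A930024N18Rik* on the opposite strand. With unshared exonic bases as length, *Dll1* stood at 0.777, *Notch1* at 2.08 and *Dll4* at 2.52 CPM/kb, in place of 0.617, 1.88 and 2.38.

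Per kilobase, *Jag2* made up 49.9%, 56.2% and 50.0% of the 5 ligands in replicates 1, 2 and 3, and *Jag1* 26.4%, 24.0% and 20.02%. *Dll4* made up 13.6%, 16.7% and 21.0%, *Dll1* 4.90%, 2.78% and 5.38%, and *Dll3* 5.14%, 0.274% and 3.66%. The summed Jagged level was 3.22, 4.05 and 2.33 times the summed Delta level. The summed receptor level was 1.92, 2.38 and 1.78 times the summed ligand level.

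**Figure D2:**
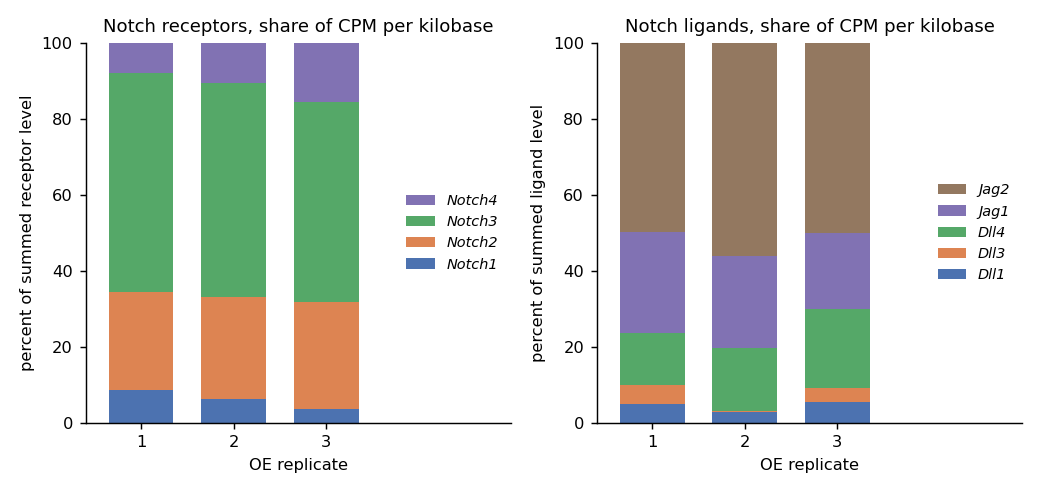
Share of each gene in the summed level of the 4 receptors (left) and 5 ligands (right), in percent of CPM per kilobase, for each OE replicate. *Notch3* takes 52.7% to 57.7% of the receptor level and *Jag2* 49.9% to 56.2% of the ligand level, while *Notch4* runs from 7.86% to 15.6%.

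*Lfng* (ENSMUSG00000029570, chromosome 5, 140607320 to 140615545, plus strand) was at 6.09, 5.03 and 5.36 CPM in replicates 1, 2 and 3, and its highest library was 1.21 times the lowest. It is a known target of Notch signalling as well as a modifier of the receptors. The promoters of the members were therefore searched for the core motif of RBPJ (TGGGAA), for the E-box that HEY proteins bind (CACGTG) and for a homeodomain core of the kind that DLX proteins bind (TAATT), on both strands of the 250 bases before each RefSeq start in GRCm38.p6. Over all 32851 windows of this length, 21.6% held the RBPJ core, 6.02% the E-box and 25% the homeodomain core. All 10 members had a window, and *Dll1* had 2. The RBPJ core was found in 1 member, *Lfng*, which held 2 copies, at 135 to 130 and 108 to 103 bases before the start. The E-box, also in *Lfng* alone, overlaps the second of these. The homeodomain core was found in *Lfng* and *Dll3*. The whole windows of *Dll3* and *Jag2* lie within their own exons in GENCODE M21. Of the other windows, the first of *Dll1* (153 bases) and that of *Jag1* (124 bases) hold the most such bases. These are matches of letters and not measured binding sites. Printed here, 5′ to 3′ on the gene's strand, are the window of *Lfng* without the bases that GENCODE M21 places in its first exon (chr5:140607091-140607319, plus strand), that of *Notch3*, the most abundant member (chr17:32166891-32167140, minus strand), and that of *Dll4*, the steadiest (chr2:119325534-119325783, plus strand). Capitals mark the motif letters, and the windows of *Notch3* and *Dll4* hold none.
Lfng: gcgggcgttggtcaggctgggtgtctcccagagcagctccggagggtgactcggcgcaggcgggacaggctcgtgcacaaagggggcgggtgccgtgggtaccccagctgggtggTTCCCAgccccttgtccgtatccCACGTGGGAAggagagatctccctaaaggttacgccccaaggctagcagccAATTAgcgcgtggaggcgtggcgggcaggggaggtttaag
Notch3: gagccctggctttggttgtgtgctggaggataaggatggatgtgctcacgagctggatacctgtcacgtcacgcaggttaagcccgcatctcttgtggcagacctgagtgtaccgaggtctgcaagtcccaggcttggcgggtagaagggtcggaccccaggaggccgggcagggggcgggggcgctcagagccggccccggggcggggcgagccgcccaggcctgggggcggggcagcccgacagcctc
Dll4: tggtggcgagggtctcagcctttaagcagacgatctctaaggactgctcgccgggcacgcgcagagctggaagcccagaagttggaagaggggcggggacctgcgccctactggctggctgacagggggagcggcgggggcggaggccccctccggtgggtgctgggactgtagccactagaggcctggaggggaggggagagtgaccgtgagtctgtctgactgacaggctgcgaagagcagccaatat

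Differences among the libraries were then set against counting noise and against the spread between replicates. The counts of 8 of 10 members differed between the 3 OE libraries by more than counting noise, which was also true of 81.5% of the 17115 genes tested, those that averaged 10 counts or more (chi-square test, Benjamini-Hochberg adjusted p under 0.05). The share among the members was thus near that of all genes. The exceptions were *Dll4* (adjusted p = 0.680) and *Lfng* (adjusted p = 0.156). The adjusted p was 2.12e-05 for *Dll1*, 1.59e-13 for *Notch4* and 1.69e-17 for *Dll3*, and smaller still for *Notch1*, *Notch2*, *Notch3*, *Jag1* and *Jag2*. Without replicate 3 the calls of *Notch3* and *Jag2* were lost (adjusted p = 0.131 and 0.322), and without replicate 2 that of *Dll1* (adjusted p = 0.0525). When the variance also held the common spread between replicates (negative binomial, edgeR dispersion), 0 of 10 members and 0.958% of all genes passed. At an unadjusted p under 0.05 it was 1 member, *Dll3*, against 6.81% of all genes.

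Spread beyond counting error, expressed as a share of the mean (biological coefficient of variation), had a median of 0.2999 over the members and 0.339 over all genes tested (edgeR, intercept-only model). It was lowest for *Jag2* (0.2505), *Notch2* (0.258) and *Notch4* (0.266), and highest for *Dll3* (0.847), which exceeded 98.8% of all genes. *Notch1* followed at 0.455, above 80.5% of genes. These estimates lean on the trend over all genes, so *Dll4* was put at 0.280 although its 3 CPM values differed least. Single libraries moved these values. Without replicate 3 the value common to all genes went from 0.371 to 0.221, and the coefficient to 0.153 for *Notch1*, 0.107 for *Notch2*, 0.104 for *Notch3*, 0.179 for *Jag1* and 0.116 for *Jag2*. *Notch4*, at 0.185, then exceeded *Notch1*. Without replicate 2 the common value was 0.474, and the coefficient was 0.406 for *Notch4*, 0.474 for *Dll4* and 0.513 for *Lfng*. Without replicate 1 it was 0.488 for *Dll3*.

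Each library was also compared with the mean of the other 2 on log2(CPM + 1), a scale that understates differences of low genes, and a difference of at least 2-fold was counted. In replicate 1, *Notch1* (log2 ratio 1.07) and *Dll3* (1.14) were at least 2-fold higher, which held for 2.07% of all genes. In replicate 2, *Dll3* was at least 2-fold lower (-1.32; 0.473% of all genes). In replicate 3, *Notch1* was at least 2-fold lower (-1.58; 5.21% of all genes). No other member reached 2-fold in any library. No member was at least 2-fold lower in replicate 1, higher in replicate 2 or higher in replicate 3, which held for 1.88%, 0.304% and 6.03% of all genes. *Dll4* stayed between -0.08 and 0.06, and *Lfng* between -0.16 and 0.19. With the lower pseudocount of 0.25 the ratio of *Dll3* in replicate 2 was -2.46.

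Replicate 3 held fewer reads on long genes, and the receptors are long. The median exonic length was 6396 bases for the members, 9436 for the receptors and 3871 for all genes tested, while *Lfng*, *Dll3* and *Dll4* were shorter than that median. Of all genes with over 8000 exonic bases, 82.2% lay below the mean of the other 2 libraries in replicate 3, with a median log2 ratio of -0.51. *Notch1*, *Notch2*, *Notch3* and *Notch4* all exceed that length, and their median log2 ratio in replicate 3 was -0.68. Once a smooth function of length and GC content had been subtracted, the ratio of *Notch1* in replicate 3 was -1.44, that of *Notch2* -0.36, that of *Notch3* -0.84 and that of *Notch4* 0.00. The median over the 10 members in replicate 3 was -0.26 before and -0.41 after the removal, against -0.02 and -0.01 over all genes tested. All 10 members then lay below 0 in replicate 3, by small amounts for *Notch4* and *Dll1* (-0.07), as did 51.1% of all genes. *Notch1* in replicate 1 no longer reached 2-fold (0.93).

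**Figure D3:**
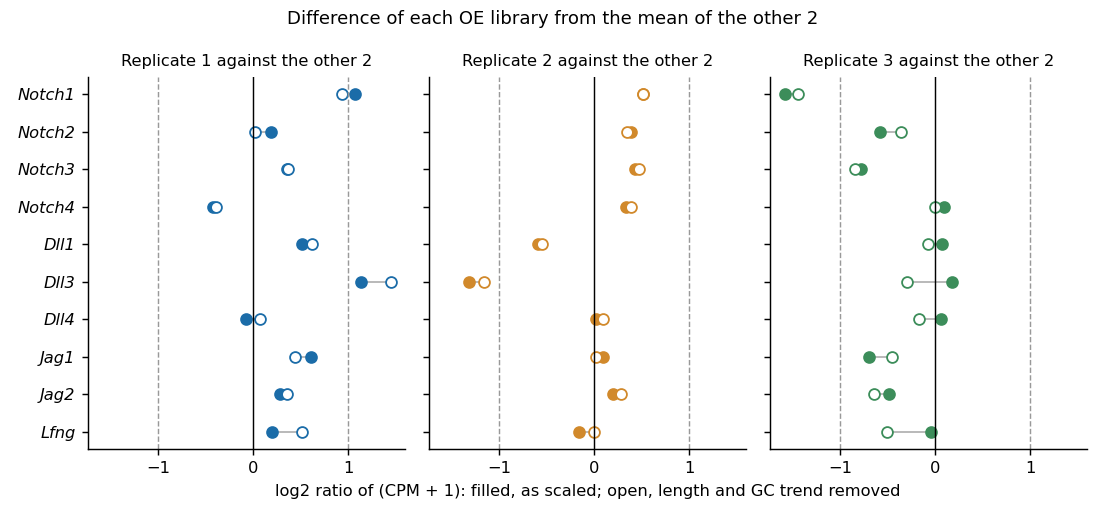
Difference of each OE library from the mean of the other 2 for each member, as a log2 ratio of (CPM + 1), with dashed lines at 2-fold. Filled points are as scaled and open points follow removal of the length and GC trend. *Notch1* lies at -1.58 and -1.44 in replicate 3, and *Dll3* at -1.32 and -1.16 in replicate 2.

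Most of the rest of the pathway was expressed as well. Of 50 listed genes beside the members, 49 had counts and 46 averaged 10 counts or more and were tested. Counts differed beyond counting noise for 41 of these 46, or 89.1%, against 81.5% of all genes, and 26 of 44 tested were called without replicate 3, against 48.8%. With the negative binomial variance 0 of the 46 passed, against 0.958% of all genes, and 3 did at an unadjusted p under 0.05, against 6.81%. The counts per list below stand beside the same 81.5% of all genes and 90.6% of those over 8000 exonic bases, and none is read as particular to its list. In replicate 3, 4 of the 46 were at least 2-fold lower and 3 higher, against 5.21% and 6.03% of all genes. *Heyl* alone was higher in replicate 1 and lower in replicate 2, against 2.07% and 0.473%. Of these 8 pathway genes, *Heyl* stayed at least 2-fold away after the length and GC trend was removed (log2 ratios 1.92 and -1.43). The 7 called in replicate 3 did not (-0.99 to 0.78). The share of all genes losing such a call was not computed.

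The target genes were uneven. *Hes1*, a repressor expressed in most progenitors, was the highest target at 27.6 ± 7.54 CPM/kb (SD, n = 3), with 39.2, 60.6 and 69.0 CPM in replicates 1, 2 and 3. *Hes1* was lowest in replicate 1, where *Notch1* and *Jag1* were highest. *Hey1*, an arterial and mesenchymal target, was at 25.4, 19.7 and 16.8 CPM and *Hey2*, a related repressor, at 6.01, 3.29 and 2.10. Both took the same order of libraries as *Notch1*, and so did *Jag1*, *Jag2* and *Rbpj*. Of all genes tested, 39.6% were highest in replicate 1 and 45.6% lowest in replicate 3. *Heyl*, a target in mural and neural crest cells, was at 13.3, 2.08 and 4.01 CPM, which was at least 2-fold higher in replicate 1 (log2 ratio 1.86) and lower in replicate 2 (-1.46). *Nrarp*, a feedback inhibitor, was at 1.17, 1.40 and 1.04 CPM, and 79.4% of its exonic bases are shared with *Gm38287* on the opposite strand. *Hes5*, a target in neural progenitors, had 4, 2 and 24 counts and *Hes7*, of the somite clock, 1, 10 and 22. *Hes2* and *Hes3* had at most 3 counts in any library, and *Hes2* was the lowest target.

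In the nuclear complex, 8 of 8 tested genes differed beyond counting noise. In replicate 3, all 8 lay below the mean of the other 2 libraries, as did 51.6% of all genes, and 7 of 8 were lowest there, with *Ctbp1* the exception, against 45.6% of all genes and 77.4% of those over 8000 exonic bases. The median exonic length of this list is 8542 bases. *Ctbp1*, a corepressor, was the highest at 96.1 ± 5.41 CPM/kb (SD, n = 3), and *Maml2*, a Mastermind coactivator, the lowest with counts at 1.20 ± 0.315. *Rbpj*, the DNA-binding partner of cleaved Notch, was at 117, 105.0 and 62.3 CPM in replicates 1, 2 and 3. *Snw1* and *Spen*, a coactivator and a corepressor of RBPJ, were at least 2-fold lower in replicate 3 (log2 ratios -1.11 and -1.11), and 44.2% of the exonic bases of *Snw1* are shared with *Slirp* on the opposite strand. *Rbpjl*, a pancreatic paralogue, had 0 counts in each library. After the length and GC trend was removed, 7 of 8 lay below the mean of the other 2 libraries in replicate 3, against 51.1% of all genes.

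Among the proteases, 8 of 10 differed beyond counting noise. *Psenen*, a small gamma-secretase subunit, was the highest at 40.9 ± 22.9 CPM/kb (SD, n = 3) and at least 2-fold higher in replicate 3 (32.7, 38.2 and 85.7 CPM). *Adam10*, which makes the first cut in the receptor, was at least 2-fold lower there (110, 93.8 and 50.3 CPM). *Ncstn*, the gamma-secretase subunit that holds the substrate, was at 79.1, 80.1 and 79.9 CPM and did not pass (adjusted p = 0.882). *Aph1c*, a gamma-secretase subunit gene, was the lowest at 0.155 ± 0.0423 CPM/kb.

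All 5 glycosyltransferases differed beyond counting noise. *Rfng*, the highest at 17.1 ± 6.44 CPM/kb (SD, n = 3), was at 29.7, 37.5 and 60.6 CPM in replicates 1, 2 and 3. *Mfng*, a further fringe gene, was at 10.03, 11.6 and 15.02 CPM. Both were highest in replicate 3 as scaled, while the counts of *Lfng* did not differ beyond counting noise. With the length and GC trend removed, *Mfng* was no longer highest in replicate 3. *Eogt*, which adds a sugar to the receptor's EGF repeats, was the lowest at 2.42 ± 0.629 CPM/kb. Of the ligases that prepare ligands for uptake, 3 of 4 differed beyond counting noise. *Mib1* was the highest at 11.0 ± 4.17 CPM/kb, with 162, 128 and 71.96 CPM, and *Neurl1b* the lowest at 0.142 ± 0.0401.

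Of the regulators, 9 of 10 differed beyond counting noise. *Dtx3* was the highest at 71.9 ± 36.5 CPM/kb (SD, n = 3) and *Dtx3l* the lowest at 0.363 ± 0.160. *Dtx3* (log2 ratio 1.15) and *Hes6* (1.10), an antagonist of HES1, were at least 2-fold higher in replicate 3, and *Itch* (-1.05), a ubiquitin ligase that acts on Notch, was at least 2-fold lower. Both tested non-canonical ligands differed beyond counting noise. *Dlk1*, an imprinted Delta-like gene that lacks the receptor-activating domain, was at 460, 543 and 618 CPM, or 95.5 ± 14.0 CPM/kb, above each of the 10 members. *Dner*, a neuronal ligand, had 10, 5 and 2 counts and was the lowest.

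**Figure D4:**
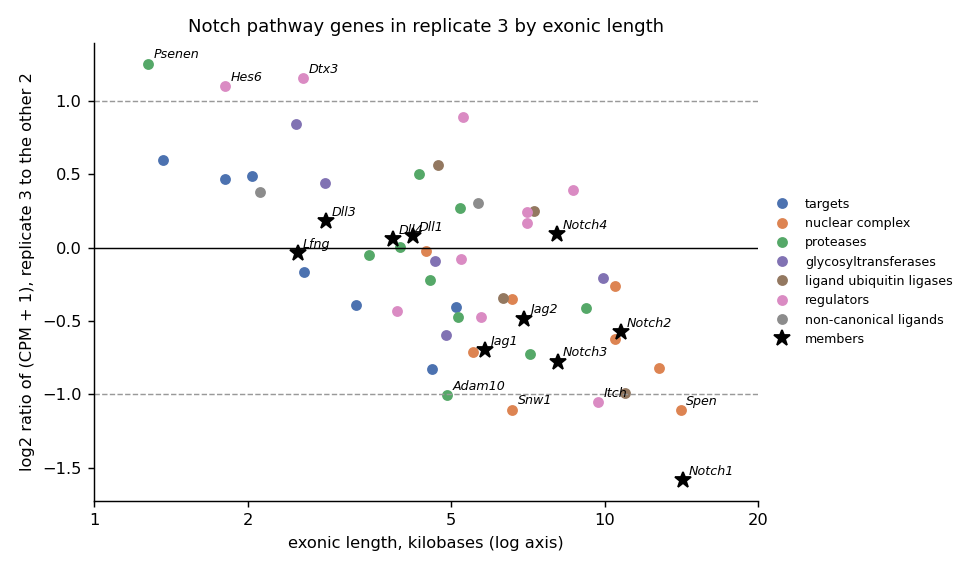
Log2 ratio of replicate 3 to the mean of the other 2 OE libraries, from (CPM + 1), against exonic length in kilobases on a log axis, for the 10 members (stars) and the 46 pathway genes tested (points by list). Dashed lines mark 2-fold, with *Psenen* at 1.25 and *Notch1* at -1.58 as the farthest points.

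Cell type markers moved beside some of the members. *Dll3* and *Dll1*, with *Heyl*, were highest in replicate 1 and lowest in replicate 2, the order also taken by 8 of 9 neuron markers at the low end and 9 of 9 at the high end. *Acta2* (8.99, 1.97 and 5.42 CPM) took that order as well, alone among the 6 mural markers, and *Myf5* (3.14, 0.450 and 2.12 CPM) alone among the 4 muscle markers, the others of which were lowest in replicate 1 and highest in replicate 3. *Krt8* of the epithelial list and the maxillary genes *Pou3f3* and *Lhx8* also took it. The glia markers summed to 98.2, 25.2 and 26.4 CPM in replicates 1, 2 and 3. *Neurog1*, a proneural factor that drives Delta expression, was at 7.38, 0.140 and 1.11 CPM, and *Neurog2*, its relative, at 1.89, 0.0281 and 0.611. Markers of neural progenitors as a whole summed to 149, 149 and 161 CPM. The part of any of these cells in the values of *Dll1*, *Dll3* and *Heyl* was not tested.

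The endothelial markers, none of which fell below 1 CPM, summed to 372, 415 and 347 CPM in replicates 1, 2 and 3. *Notch4* was likewise highest in replicate 2 but lowest in replicate 1, whereas the sum was lowest in replicate 3, and *Dll4* varied less than the sum. The endothelial list was itself split in replicate 3, where *Kdr* was at 37.3 CPM against 77.6 and 84.1 and *Cldn5* stood at 52.2 against 25.5 and 28.7. Of the mural markers, 4 of 6 reached 1 CPM in all 3 libraries, and the sum of the list was 21.6, 16.0 and 14.1 CPM. Its genes did not share an order of libraries. *Kcnj8* and *Tagln* were near the limit of detection, with at most 5 counts. The epithelial markers summed to 417, 274 and 264 CPM, though *Krt14* and *Krt18* were highest in replicate 3. *Jag1* and *Notch1* were also highest in replicate 1, and *Jag2* did not differ between replicates 1 and 2 beyond counting noise. Replicate 1 was the highest library for 6 of 10 members, 39.6% of all genes tested and 69.7% of those over 8000 exonic bases. The part of these cell types in the members' values was not tested.

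**Figure D5:**
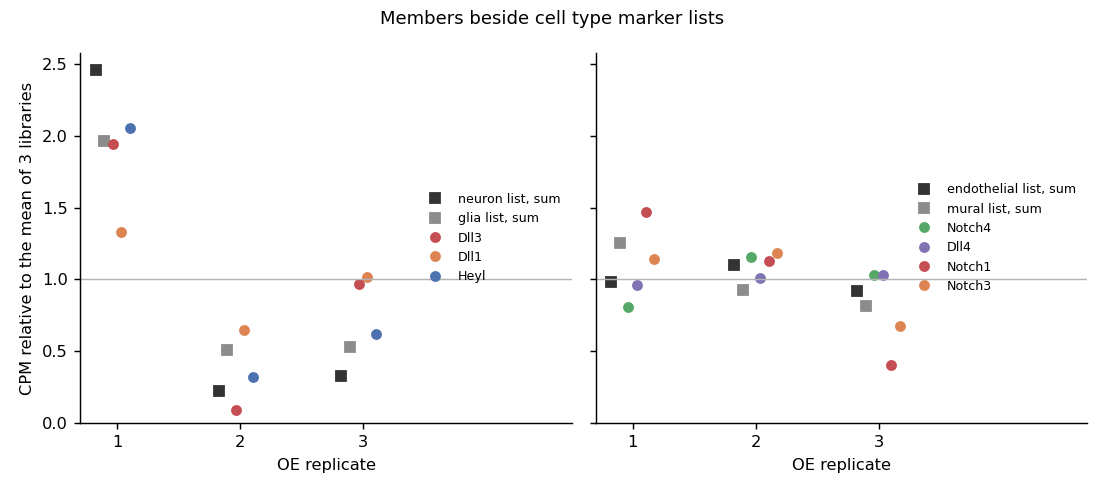
CPM of single genes (circles) and summed CPM of marker lists (squares) in each OE replicate, divided by their mean over the 3 libraries. *Dll3*, *Dll1* and *Heyl* stand above 1 in replicate 1 with the neuron and glia lists (left), while *Notch1* and *Notch3* stand below 1 in replicate 3 (right).

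*Notch1* had the widest range, 1.77 on log2(CPM + 1), of the members that averaged 100 counts or more. The protein-coding genes nearest to it in their profile over the 3 libraries were *Vash1*, an inhibitor of angiogenesis (26.8, 19.9 and 7.03 CPM), *Fv1*, a retroviral restriction factor (9.95, 7.11 and 2.18 CPM) and *Dusp4*, a MAP kinase phosphatase (23.7, 17.8 and 6.50 CPM), at Euclidean distances of 0.0285, 0.0468 and 0.0507 on centred log2(CPM + 1). With 3 libraries many genes share a profile, and 139 of 11279 lay within a distance of 0.25.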

How the data were processed

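The authors mapped paired-end reads of poly-A RNA to mm10 with STAR 2.7.3a and deposited 1 table per library of gene counts from HTSeq 0.12.4, without normalization, per the labels. The annotation release and the strand setting are not given in the sources used here. Lines that name no gene held 14.2%, 15.7% and 16.4% of counted reads in replicates 1, 2 and 3 and were left out. Reads on more than 1 gene, which are among these, made up 6.11%, 6.10% and 6.96% of all counted reads. Replicates are numbered in accession order. Identifiers were matched to GENCODE M21 without the version (55141 matched, 260 did not). Exonic length is the union of a gene's exons. Promoter sequences come from RefSeq.

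CPM used TMM scaling in edgeR 4.0.16. The chi-square test has 2 degrees of freedom. The negative binomial test puts edgeR's common dispersion into the same statistic. The length and GC trend is an additive model from mgcv 1.9.3. DESeq2 1.42.0 gave alternative size factors and dispersions. Scripts ran under R 4.3.3 and under Python 3.11.15, with pandas 2.3.3, scipy 1.17.1 and numpy 2.4.6. The steps were tested on simulated data. Alternatives were other scalings, lengths, filters and pseudocounts, and leaving out each replicate.

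The members and lists were chosen with earlier results of these data known. The genes named are the members, *Dlx2*, in each pathway list the highest and the lowest gene and those at least 2-fold from the other libraries, and the 3 genes nearest in profile to the member with the widest range among those averaging 100 counts or more. Other pathway and marker genes, and the motifs, were chosen after the values were seen.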

Additional observations from a re-analysis of the deposited data

How the results depend on the processing

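Of 375 alternative values over 74 results, 333 stayed within 1 SD between replicates, within 1.5 times, or on the same side of the threshold, and 0 differences of at least 2-fold changed sign. Among the 333 are the mean levels of single members without 1 replicate. These cannot move by 1 SD of the 3 libraries, so their staying says nothing about stability. Smaller log2 ratios changed sign 6 times with the length and GC trend removed, in replicate 3 for *Notch4*, *Dll1*, *Dll3* and *Dll4*, in replicate 1 for *Dll4* and in replicate 2 for *Lfng*. With total counts, 4 changed sign, in replicate 3 for *Notch4*, *Dll1* and *Dll4* and in replicate 1 for *Dll4*, and the median over all genes in replicate 3 moved from -0.02 to -0.12. With the longest transcript as length, the median member level moved from 2.76 to 3.18 CPM/kb, and 3 of 10 members (*Notch3*, *Dll1* and *Dll3*) kept their place in the order. The negative binomial variance left 0 members, 0 pathway genes and 0.958% of all genes beyond the expected spread. At an unadjusted p under 0.05 it left 1 member and 3 pathway genes, and the chi-square test called 8 and 41. With all genes of at least 1 count, 53.4% of 28442 genes differed beyond counting noise, and more genes with few counts enter that test. Leaving out each replicate in turn gave 6 to 8 members, 26 to 40 pathway genes, 48.8% to 77.65% of all genes, and a median member level of 2.63 to 2.76 CPM/kb. The lowest of the counts and shares came without replicate 3. Removing the trend on length and GC left 1 member at least 2-fold higher in replicate 1 in place of 2. With total counts in place of TMM, *Lfng* passed the chi-square test (adjusted p = 0.0184), and it did not pass under the other alternatives. No paired analysis was possible because all libraries belong to 1 group. The low counts of *Dll3*, down to 4 in replicate 2, limit the precision of its ratios, and with 1 genotype no value bears on a difference from wild type.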
